A study of Mus musculus with 27 samples.

Results

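The genes described here encode the constitutive subunits of the proteasome and its closest assembly chaperones. They are the 35 mouse genes with the symbols Psma1 to Psma8, Psmb1 to Psmb7, Psmc1 to Psmc6 and Psmd1 to Psmd14. They were chosen by symbol from 54752 genes counted in CT26 tumors, and all 35 were found. The rule uses no measured value, but it was set with earlier results of these data known. CT26 is a colon carcinoma line of the BALB/c mouse, and the tumors were raised by inoculation under the skin of the flank. Before that the cells had received, by retrovirus, a guide RNA for knockout of Mettl3 (Mettl3 KO), one for Mettl14 (Mettl14 KO) or a control guide (control). Both proteins belong to the enzyme complex that writes N6-methyladenosine (m6A) into messenger RNA. RNA-seq covered 5 samples in each of the 3 groups, while 6 m6A immunoprecipitations and 6 inputs are not analysed here. The series design places the tumors under anti-PD-1, an antibody against a T cell checkpoint. The shared protocol lists anti-CTLA-4, anti-PD1 and IgG at 200 µg (10 mg/kg) between day 11 and day 23, and no sample label says which of them a tumor received. The guide acts in the grafted cells only, so cells of the host within a tumor keep both genes. The samples titled Mettl14 carry Mettl4 in their genotype field, and the title was followed. As no label ties a sample to an animal, the p-values below reflect only how these samples spread, which may be technical.

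The proteasome is the large protease that degrades proteins tagged with ubiquitin. Its barrel, the core particle, is built of outer rings of alpha subunits (Psma genes), which gate the entry, and inner rings of beta subunits (Psmb genes), among which Psmb5, Psmb6 and Psmb7 encode the catalytic sites. A regulatory particle caps the barrel. Its base, a ring of ATPases (Psmc genes) with the non-ATPase subunits Psmd1, Psmd2 and Psmd4, binds the ubiquitin chain and unfolds the substrate. Its lid, built of other Psmd subunits, removes the chain. Interferon-gamma, which activated T cells release, induces the catalytic subunits Psmb8, Psmb9 and Psmb10, which replace Psmb5, Psmb6 and Psmb7 to form the immunoproteasome, a source of peptides for MHC class I. A cell builds the subunits in fixed proportion, and when proteasome activity falls short the factor encoded by Nfe2l1 raises their transcription together.

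Levels below are CPM, a gene's reads over the reads on all genes of the library, scaled to a common library size with edgeR's TMM factors. Control libraries held 5520340 to 20978633 reads on genes, Mettl3 KO libraries 4354273 to 9332032 and Mettl14 KO libraries 6452364 to 17022057. Reads assigned to no gene made up 44.3% to 78.6%, 60.2% to 78.0% and 53.6% to 65.9% of uniquely aligned reads in the same order. Control replicate 1, with 78.6% of its reads outside genes and the fewest gene reads of its group, stood apart from the other controls (44.3% to 53.8%). Counts of called members, ratios of inducible to constitutive subunits and some single genes are therefore given with and without it. Group means of summed or averaged levels include it. Without it, controls no longer overlap Mettl3 KO libraries (60.2% to 78.0%) in this share. In those fits the knockout and the share cannot be told apart. Mettl3 itself stood at 19.5 ± 3.59 CPM in control and 13.8 ± 1.45 in Mettl3 KO tumors (SD, n = 5; edgeR log2 fold change -0.56 ± 0.15 SE, adjusted p = 0.0545), and Mettl14 at 69.5 ± 11.7 CPM in control and 61.6 ± 12.4 in Mettl14 KO tumors (edgeR log2 fold change -0.21 ± 0.17 SE, adjusted p = 0.735). Neither targeted gene passed the threshold at the RNA level, and the counts do not show whether its protein was lost. Levels of markers of other cell types differed between libraries. Over control, Mettl3 KO and Mettl14 KO libraries in that order, the 5 skeletal muscle markers summed to 23.2 to 274, 22.5 to 648 and 3.77 to 31.4 CPM, and the 5 erythroid markers to 63.1 to 298, 21.7 to 60.9 and 26.7 to 59.9 CPM. The 6 fibroblast markers summed to 1347 to 3169, 1220 to 4207 and 1841 to 7443 CPM, and the 8 macrophage markers, whose ranges overlapped widely, to 735 to 1286, 631 to 1511 and 965 to 2605 CPM. The 4 keratins of the carcinoma cells, led by Krt20, summed to 174 to 236, 45.6 to 108 and 73.0 to 162 CPM, while the 52 markers of 9 cell types all had reads in every library. The part of these cells in the results below was not tested. In these bulk samples, fewer cells of a type and less RNA per cell cannot be told apart.

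In Mettl3 KO tumors 34 of the 35 genes had a lower fitted level than in control under TMM (55.1% of all genes). All members but Psma8 had an average log2 CPM above 4, where 85.9% to 96.2% of genes in each class of abundance were lower. Under abundance-dependent loess scaling 19 of the 35 were lower (49.7% of all genes), yet none passed the threshold under either scaling. The median log2 fold change of the 35 was -0.53, beside -0.14 over all 21427 genes tested, and the values other than that of Psma8 ranged from -0.89 (Psmd5) to -0.21 (Psmd9). The edgeR quasi-likelihood test with Benjamini-Hochberg adjustment called 0 of the 35 at an adjusted p under 0.05, where it called 1.24% of all genes in either direction and 0.835% as lower. The lowest adjusted p among the members was 0.0524. At an unadjusted p under 0.05 the same test held 26 of the 35, against 32.3% of all genes, a share not split by abundance. DESeq2 called 13 of them lower, against 31.1% of the genes it adjusted. The 5 Mettl3 KO libraries did not lie below the 5 control libraries for any member, as they did for 1.68% of all genes. Control replicate 1 held the lowest control value for 32 of the 35, the exceptions being Psma8, Psmc1 and Psmd7. Without that library the test called 17 members lower (15.4% of all genes) and 1 higher, Psma8 (36.2% of all genes). Those called lower included Psma6, Psmb5, Psmb4, Psmc2 and Psmd1 (edgeR adjusted p = 0.0132, 0.0324, 0.0136, 0.0102 and 0.0491). The median of the members was then -0.40 beside 0.12 over all genes. In that fit the groups no longer overlapped in the share of reads outside genes. All 5 Mettl3 KO libraries lay below control replicates 2 to 5 for 17 members as well, against 17.7% of all genes.

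**Figure D1:**
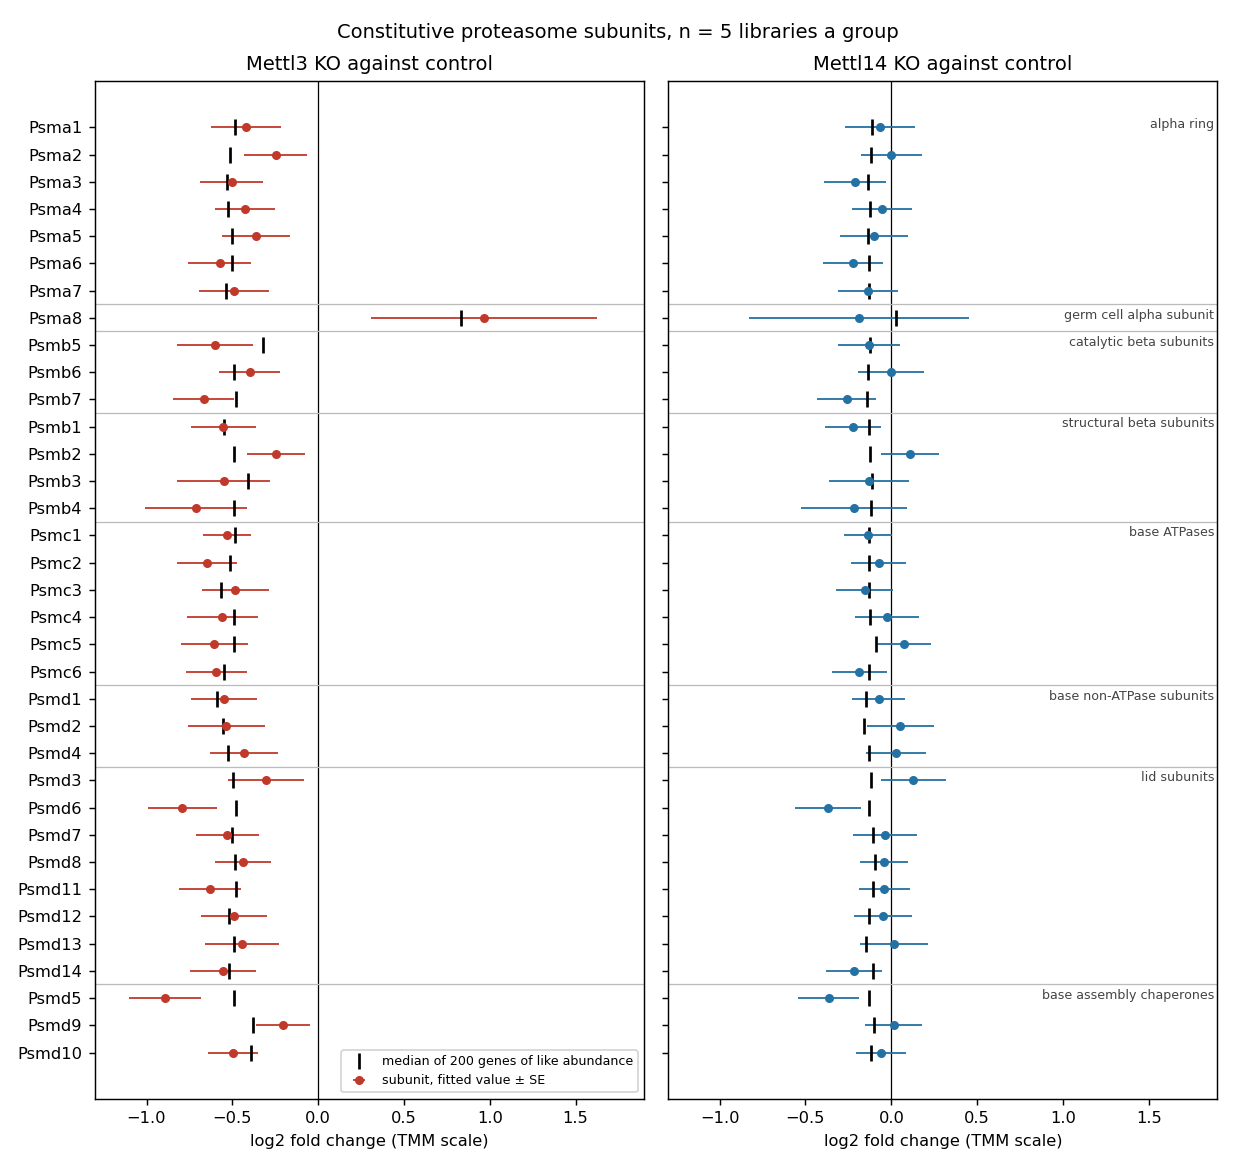
Fitted log2 fold changes of the 35 genes against control, with standard errors as bars, for Mettl3 KO (left) and Mettl14 KO (right), n = 5 libraries a group, ordered by role. The black tick of each gene is the median of its 200 nearest genes in abundance; on this TMM scale 34 Mettl3 KO points lie left of 0 (19 under loess scaling) and most lie close to their tick, while most Mettl14 KO points lie near 0.

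The sum over the 35 genes was on average lowest in Mettl3 KO, while the order of control and Mettl14 KO depended on the scaling. It was 1925, 3584, 3215, 2967 and 3349 CPM in control replicates 1 to 5, 1795, 2513, 2112, 1804 and 2725 in Mettl3 KO and 3046, 2305, 3119, 3339 and 2578 in Mettl14 KO. These sums averaged 3008 ± 645, 2190 ± 419 and 2877 ± 424 CPM (SD, n = 5 each). Control replicate 1 lay within the Mettl3 KO range, while the other 4 controls lay above all 5 Mettl3 KO libraries. With plain library totals in place of TMM the means were 2808 ± 390, 2212 ± 571 and 2964 ± 298 CPM. For 34 of the 35 genes, all but Psma8, the Mettl3 KO mean was the lowest of the 3 group means.

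**Figure D2:**
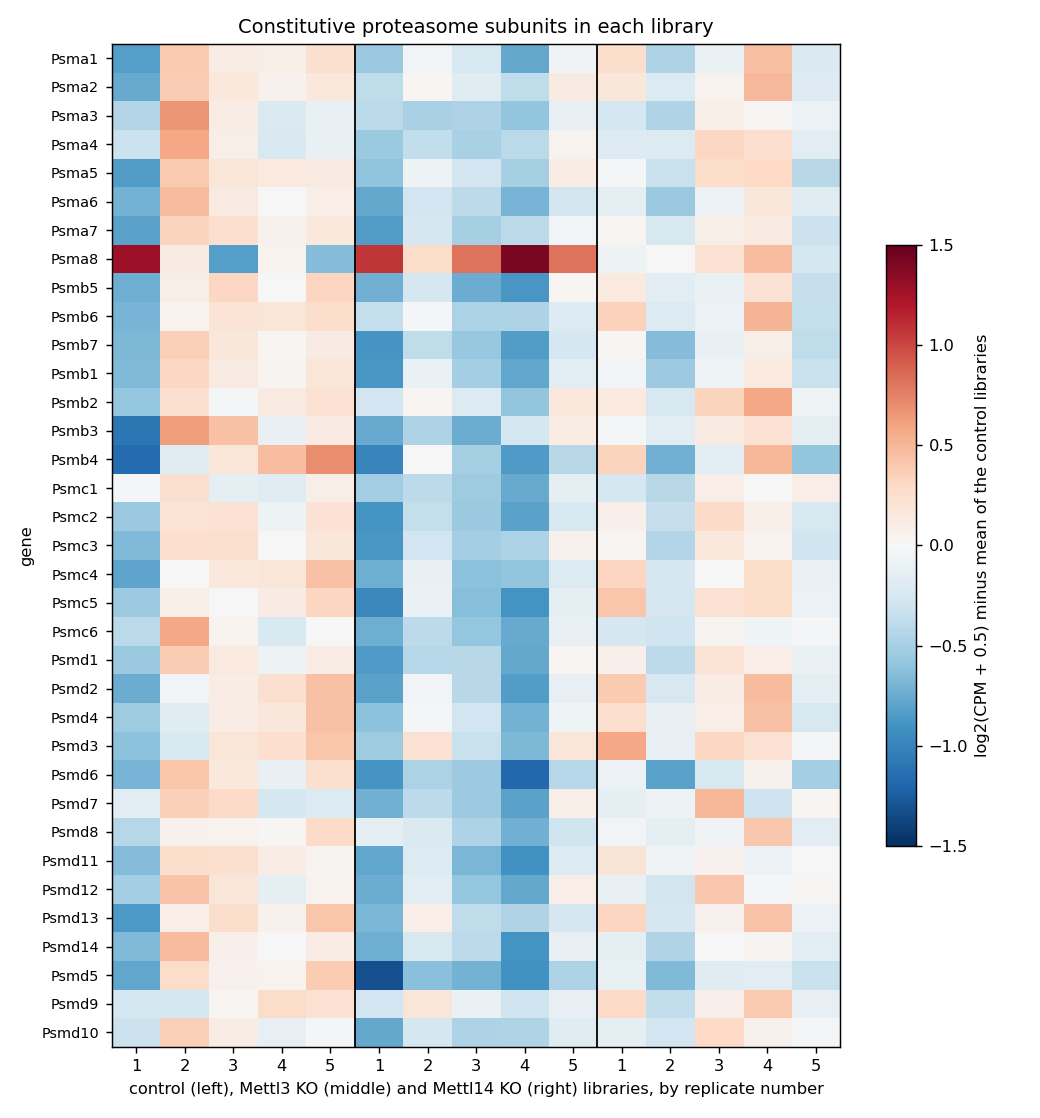
Each cell is log2(CPM + 0.5) of a gene in 1 library minus its mean over the 5 control libraries, with genes in rows and libraries in columns (control left, Mettl3 KO middle, Mettl14 KO right). Control replicate 1 and Mettl3 KO replicates 1 and 4 are low over nearly all rows, and Psma8 runs opposite to the other genes in Mettl3 KO.

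The fold changes of all genes in the Mettl3 KO comparison depended on abundance, so each member was also set against its 200 nearest genes in average log2 CPM, members left out. Genes with an average log2 CPM under 1 had a median log2 fold change of 0.95, and genes over 8 had -0.61. Leaving out Psma8, the neighbours of the members had medians from -0.59 to -0.32. Relative to their neighbours the 35 members had a median of 0.02, 18 above and 17 below 0. Of the 35, 29 lay within 0.2 of their neighbours, and the extremes were -0.40 for Psmd5 and 0.26 for Psma2. The share of reads outside genes, which was 54.8% ± 13.9 in control and 68.3% ± 7.16 in Mettl3 KO libraries (SD, n = 5), moved with the same contrast. With this share as a covariate the members' median log2 fold change was -0.18, and with a scaling that follows abundance (loess) it was -0.02. Its part in the lower levels of the members beyond these fits was not tested.

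**Figure D3:**
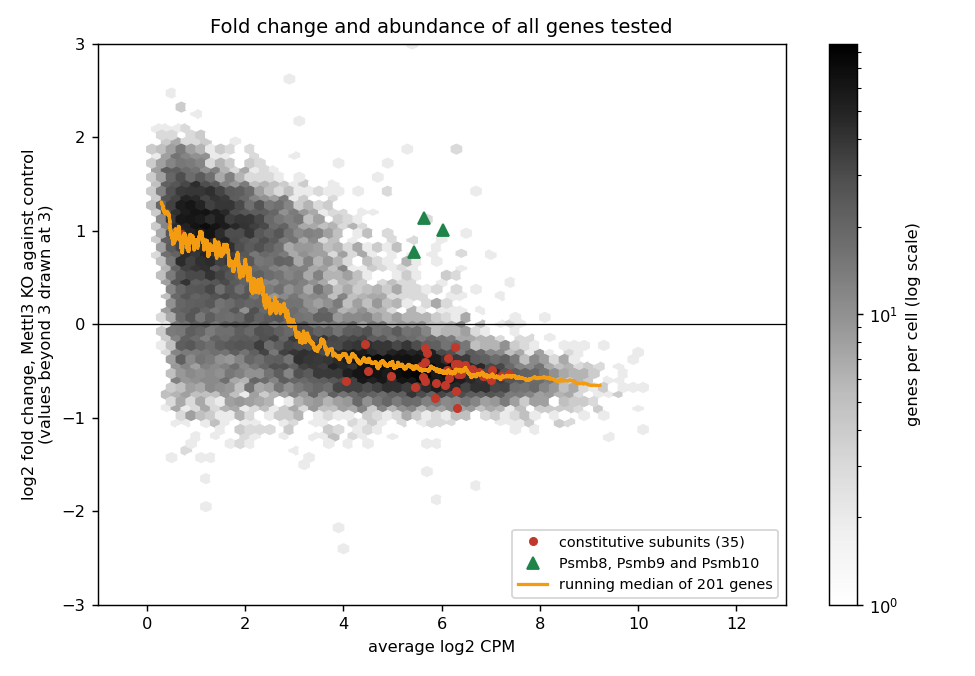
Log2 fold change of each tested gene in Mettl3 KO against control over its average log2 CPM, with gene density in grey on a log scale, the 35 constitutive subunits as red points, and Psmb8, Psmb9 and Psmb10 as green triangles. The red points follow the orange running median, which runs from above 0 among rare genes to below 0 among abundant ones, while the triangles lie above it.

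The 7 alpha ring genes other than Psma8 had log2 fold changes from -0.57 to -0.25 in Mettl3 KO, with a median of -0.43, and 4 of them had an unadjusted p under 0.05 by edgeR, against 32.3% of all genes. Relative to genes of like abundance these genes lay between -0.07 (Psma6) and 0.26 (Psma2). Psma6, the lowest of the ring by fold change, is a structural alpha subunit on chromosome 12 (55384222 to 55418454, mm10). Psma6 read 50.1, 114, 90.6, 82.5 and 88.0 CPM across control replicates 1 to 5, 48.3, 67.4, 62.7, 50.5 and 67.8 across the Mettl3 KO libraries and 75.1, 56.0, 77.1, 93.0 and 72.4 across the Mettl14 KO libraries. All 5 Mettl3 KO values lay below control replicates 2 to 5, and control replicate 1 lay among them. The comparison gave a fitted log2 change of -0.57 ± 0.18 (SE; adjusted p by edgeR = 0.0664). Psma2, on chromosome 13 (14613240 to 14674236), had the smallest difference of the ring. Psma2 read 48.0, 106, 90.5, 84.8 and 90.4 CPM across control replicates 1 to 5, 62.0, 83.1, 71.3, 62.1 and 89.5 across the Mettl3 KO libraries and 91.2, 70.3, 84.4, 114 and 70.8 across the Mettl14 KO libraries. Here the Mettl3 KO values spread from 62.0 to 89.5 CPM and overlapped the controls, with a fitted log2 change of -0.25 ± 0.18 (SE; adjusted p by edgeR = 0.321).

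Psma8 is the alpha subunit of the spermatoproteasome, which is made in male germ cells, and it was the 1 member whose fitted value was higher in Mettl3 KO. Psma8 read 2.76, 0.968, 0.250, 0.883 and 0.352 CPM across control replicates 1 to 5, 2.30, 1.11, 1.84, 3.05 and 1.84 across the Mettl3 KO libraries and 0.766, 0.829, 1.06, 1.34 and 0.609 across the Mettl14 KO libraries. The highest control value belonged to control replicate 1, at 2.76 CPM. The difference had a fitted log2 change of 0.97 ± 0.66 (SE; adjusted p by edgeR = 0.291). Without control replicate 1 it was 1.89 with an edgeR adjusted p of 0.00778, and relative to the median of its 200 nearest genes, rare genes as well, it was then -0.31. With all samples it lay 0.14 above its neighbours. Its levels were at most 3.05 CPM, resting on 3 to 17 reads a library.

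Among the beta subunits, the catalytic genes are shown with their promoters, because the comparison with the interferon-inducible subunits turns on them. The 220 bases from 200 before to 20 after the transcription start (RefSeq, GRCm38.p6, the mm10 build, 5′ to 3′ on the gene's strand) are given for Psmb5 at chr14:54617976-54618195 on the minus strand and Psmb6 at chr11:70525157-70525376 on the plus strand. Those of the inducible counterparts are given for Psmb8 at chr17:34197995-34198214 on the plus strand and Psmb9 at chr17:34187311-34187530 on the minus strand. Capitals mark matches, on either strand, to the core of the antioxidant response element, TGACNNNGC, which Nfe2l1 and Nfe2l2 bind, or to the CCAAT box, read as ATTGG on the other strand.
Psmb5: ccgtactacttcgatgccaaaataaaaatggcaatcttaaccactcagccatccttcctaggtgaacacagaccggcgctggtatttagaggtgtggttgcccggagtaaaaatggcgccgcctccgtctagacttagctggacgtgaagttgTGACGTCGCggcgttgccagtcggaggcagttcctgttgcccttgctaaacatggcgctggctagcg
Psmb6: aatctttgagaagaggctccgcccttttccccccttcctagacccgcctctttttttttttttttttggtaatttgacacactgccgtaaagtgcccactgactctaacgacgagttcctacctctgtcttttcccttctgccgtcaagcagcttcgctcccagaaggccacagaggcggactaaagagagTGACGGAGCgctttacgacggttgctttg
Psmb8: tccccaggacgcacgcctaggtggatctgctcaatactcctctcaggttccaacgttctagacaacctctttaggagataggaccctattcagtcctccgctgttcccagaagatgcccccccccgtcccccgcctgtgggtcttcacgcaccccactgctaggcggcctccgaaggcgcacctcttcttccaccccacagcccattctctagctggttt
Psmb9: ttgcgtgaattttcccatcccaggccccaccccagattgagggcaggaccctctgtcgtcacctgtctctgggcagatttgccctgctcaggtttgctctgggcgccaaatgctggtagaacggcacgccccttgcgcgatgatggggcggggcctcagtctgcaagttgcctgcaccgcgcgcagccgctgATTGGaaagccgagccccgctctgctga
The core motif began at -47 in Psmb5 and at -9 in Psmb6, the Psmb8 window held neither motif, and the match in Psmb9 was a CCAAT box at -8. RefSeq promoters of 300 bases (250 before and 50 after the start) were matched for 28 of the 35 members. TGACNNNGC was present in 5 of the 28 (17.9%: Psmb5, Psmb6, Psmc6, Psmd9 and Psmd12), against 14.0% of 27025 genes. CCAAT was present in 11 of the 28 (39.3%), against 41.1% of the genes. A motif of interferon-stimulated genes, 2 copies of GAAA with 2 bases of any kind between them, was searched for after the levels had been seen and was present in 3 of the 28 (10.7%), against 3.99%. These shares describe letters in a window and show no binding.

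The 3 catalytic genes had Mettl3 KO log2 fold changes of -0.67 to -0.40. Psmb5, on chromosome 14 (54614119 to 54618022), encodes the chymotrypsin-like site. Psmb5 read 11.2, 20.0, 23.5, 18.9 and 23.8 CPM across control replicates 1 to 5, 11.3, 15.8, 11.0, 10.1 and 19.2 across the Mettl3 KO libraries and 20.9, 16.7, 17.5, 21.9 and 14.7 across the Mettl14 KO libraries. The comparison gave a fitted log2 change of -0.60 ± 0.22 (SE; adjusted p by edgeR = 0.0958), and control replicate 1 (11.2 CPM) was level with the lower Mettl3 KO libraries. Psmb6, on chromosome 11 (70525367 to 70527858), encodes the caspase-like site. Psmb6 read 34.1, 57.7, 63.9, 63.0 and 66.9 CPM across control replicates 1 to 5, 43.4, 54.8, 39.9, 40.2 and 48.1 across the Mettl3 KO libraries and 70.6, 48.4, 52.2, 79.6 and 43.3 across the Mettl14 KO libraries. Every Mettl3 KO value lay between control replicate 1 and the other 4 controls, with a fitted log2 change of -0.40 ± 0.18 (SE; adjusted p by edgeR = 0.142). Psmb7, on chromosome 2 (38588036 to 38644087), encodes the trypsin-like site. Psmb7 read 32.6, 66.8, 58.9, 53.1 and 56.8 CPM across control replicates 1 to 5, 28.0, 39.9, 35.1, 29.0 and 43.9 across the Mettl3 KO libraries and 52.7, 33.2, 48.3, 55.5 and 40.1 across the Mettl14 KO libraries. It had a fitted log2 change of -0.67 ± 0.18 (SE; adjusted p by edgeR = 0.0529), the lowest of the catalytic genes, and without control replicate 1 its value was -0.58 with an adjusted p of 0.00569. The 4 structural beta genes had values from -0.71 (Psmb4) to -0.25 (Psmb2), with a median of -0.55.

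Psmb4 and Psmb2 mark the ends of the structural beta group. Psmb4 read 39.1, 77.2, 100.2, 121 and 143 CPM across control replicates 1 to 5, 44.1, 88.6, 62.3, 48.8 and 65.9 across the Mettl3 KO libraries and 111, 53.0, 78.6, 125 and 58.3 across the Mettl14 KO libraries. Control values of Psmb4 spanned a wide range, from 39.1 to 143 CPM, and the comparison gave a fitted log2 change of -0.71 ± 0.30 (SE; adjusted p by edgeR = 0.126). Psmb2 read 35.7, 63.7, 53.0, 58.9 and 63.2 CPM across control replicates 1 to 5, 44.1, 54.8, 46.7, 35.4 and 60.3 across the Mettl3 KO libraries and 59.4, 45.5, 67.8, 80.3 and 51.2 across the Mettl14 KO libraries. For Psmb2 the Mettl3 KO and control ranges overlapped over most of their width, with a fitted log2 change of -0.25 ± 0.17 (SE; adjusted p by edgeR = 0.29). Psmb1 and Psmb3 lay between them, both at -0.55.

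In the base, all 6 ATPase genes had an unadjusted p under 0.05 in Mettl3 KO (32.3% of all genes), with log2 fold changes from -0.65 to -0.48 and a median of -0.58. Relative to genes of like abundance they lay between -0.14 (Psmc2) and 0.08 (Psmc3). Psmc2 (chromosome 5, 21785283 to 21803787) had the lowest fold change. Psmc2 read 53.7, 91.2, 92.0, 75.4 and 92.0 CPM across control replicates 1 to 5, 42.3, 61.6, 53.7, 45.2 and 67.0 across the Mettl3 KO libraries and 83.6, 62.3, 97.01, 84.4 and 67.0 across the Mettl14 KO libraries. Its Mettl3 KO values lay below control replicates 2 to 5, with a fitted log2 change of -0.65 ± 0.17 (SE; adjusted p by edgeR = 0.0533). Psmc3 read 69.9, 132, 130.2, 111 and 124 CPM across control replicates 1 to 5, 60.2, 90.7, 77.7, 79.5 and 115 across the Mettl3 KO libraries and 113, 81.5, 123, 114 and 89.9 across the Mettl14 KO libraries. Psmc3, the highest of the ATPases by fold change, had a fitted log2 change of -0.48 ± 0.20 (SE; adjusted p by edgeR = 0.12), and Mettl3 KO replicate 5 lay within the range of controls 2 to 5. The non-ATPase genes of the base are the scaffolds Psmd1 and Psmd2 and the ubiquitin receptor Psmd4. Psmd1 read 116, 222, 189, 162 and 184 CPM across control replicates 1 to 5, 94.5, 127, 127, 99.7 and 174 across the Mettl3 KO libraries and 179.9, 130.3, 196, 183 and 159.6 across the Mettl14 KO libraries. Psmd4 read 58.7, 74.6, 91.6, 95.5 and 116 CPM across control replicates 1 to 5, 55.1, 83.0, 69.5, 51.8 and 81.5 across the Mettl3 KO libraries and 102, 78.6, 90.9, 116 and 71.8 across the Mettl14 KO libraries. For both genes 1 or more Mettl3 KO libraries reached the range of controls 2 to 5, with -0.55 ± 0.19 (SE, edgeR adjusted p = 0.0847) for Psmd1 and -0.43 ± 0.20 (SE, edgeR adjusted p = 0.154) for Psmd4. Psmd2 lay between them at -0.53.

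The 8 lid genes had Mettl3 KO values from -0.79 to -0.30 with a median of -0.51, and 6 of them had an unadjusted p under 0.05 (32.3% of all genes). Relative to genes of like abundance they lay between -0.31 (Psmd6) and 0.19 (Psmd3). Psmd6 (chromosome 14, 14112174 to 14120984), a structural subunit of the lid, had the lowest fold change. Psmd6 read 43.3, 94.6, 79.1, 65.4 and 83.6 CPM across control replicates 1 to 5, 38.1, 50.7, 48.5, 31.1 and 52.3 across the Mettl3 KO libraries and 66.4, 40.2, 60.0, 74.3 and 49.6 across the Mettl14 KO libraries. Its Mettl3 KO values lay below controls 2 to 5, the comparison gave a fitted log2 change of -0.79 ± 0.20 (SE; adjusted p by edgeR = 0.0524), and without control replicate 1 the value was -0.71 with an adjusted p of 0.00321. Psmd3 read 35.9, 47.0, 62.4, 65.8 and 73.4 CPM across control replicates 1 to 5, 37.9, 64.6, 43.5, 34.5 and 62.7 across the Mettl3 KO libraries and 82.3, 50.4, 68.2, 64.7 and 54.2 across the Mettl14 KO libraries. Psmd3 overlapped between the groups, with a fitted log2 change of -0.30 ± 0.22 (SE; adjusted p by edgeR = 0.313). Psmd14, the deubiquitinase of the lid, had -0.55 with an edgeR adjusted p of 0.0817 and passed without control replicate 1 (-0.47, adjusted p = 0.0293). Psmd7, its catalytically inactive partner, had -0.53 (edgeR adjusted p = 0.0839) and did not pass without that library either (-0.36, adjusted p = 0.133).

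Psmd5, Psmd9 and Psmd10 encode chaperones that assemble the base and leave the finished particle. Psmd5 (chromosome 2, 34849734 to 34874968) had the lowest fitted value of all 35 genes in Mettl3 KO and also lay furthest below genes of like abundance. Psmd5 read 57.1, 119.9, 104, 103 and 128 CPM across control replicates 1 to 5, 39.3, 63.9, 60.1, 52.2 and 71.7 across the Mettl3 KO libraries and 91.6, 62.3, 86.9, 87.6 and 77.9 across the Mettl14 KO libraries. The Mettl3 KO values, at most 71.7 CPM, lay below controls 2 to 5 and overlapped control replicate 1 at 57.1 CPM. The comparison gave a fitted log2 change of -0.89 ± 0.21 (SE; adjusted p by edgeR = 0.0524), and without control replicate 1 it was -0.82 with an adjusted p of 0.00204. In Mettl14 KO Psmd5 had -0.36 ± 0.18 (SE, edgeR adjusted p = 0.466), which without control replicate 1 became -0.49 with an adjusted p of 0.0497, in a fit that called 2% of all genes lower. Psmd9 read 18.6, 18.7, 22.9, 27.3 and 26.6 CPM across control replicates 1 to 5, 18.4, 25.6, 20.9, 18.3 and 20.6 across the Mettl3 KO libraries and 27.6, 17.4, 23.8, 29.7 and 20.6 across the Mettl14 KO libraries. Psmd9 had a fitted log2 change of -0.21 ± 0.16 (SE; adjusted p by edgeR = 0.331), the smallest difference below 0 among the members, and 25.5% of its exon bases also belong to the gene model Gm26745. Psmd10, known also as the oncoprotein gankyrin, had -0.49 with an adjusted p of 0.0597.

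In Mettl14 KO tumors the constitutive genes stood close to control. The median log2 fold change of the 35 was -0.07, beside -0.09 over all 21555 genes tested, with 8 values above and 27 below 0 (25 above and 10 below with library totals, 21 and 14 with loess scaling). The extremes were -0.37 for Psmd6 and 0.13 for Psmd3. edgeR called 0 of the 35 (0% of all genes), none had an unadjusted p under 0.05 (11.3% of all genes), and DESeq2 called 0. The 5 Mettl14 KO libraries lay below all 5 controls for none of the members and for 0.701% of all genes. Relative to genes of like abundance the median was 0.05, from -0.24 to 0.25. Psmd6 had -0.37 ± 0.19 (SE, edgeR adjusted p = 0.506), and Psmb5 had -0.13 ± 0.18 (SE, adjusted p = 0.923). The Mettl14 KO and Mettl3 KO comparisons share their control samples.

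The knockouts were also compared with each other, in a fit of all 15 libraries. The members had a median log2 difference of -0.38 in Mettl3 KO minus Mettl14 KO, beside -0.01 over all 24566 genes, and -0.05 relative to genes of like abundance. edgeR called 0 of the 35 (0% of all genes), 12 had an unadjusted p under 0.05 (12.8% of all genes), and DESeq2 called 0. Psmc5, an ATPase of the base, had the lowest value at -0.64 ± 0.21 (SE, edgeR adjusted p = 0.349). Psmd11, a lid subunit, was the single member whose Mettl3 KO libraries all lay below all Mettl14 KO libraries, which held for 1.87% of all genes. Psmd11 read 44.5, 84.4, 82.7, 75.8 and 72.2 CPM across control replicates 1 to 5, 40.7, 61.0, 43.4, 37.2 and 60.6 across the Mettl3 KO libraries and 80.3, 67.4, 73.4, 65.8 and 70.7 across the Mettl14 KO libraries. Its difference between the knockouts was -0.55 ± 0.19 (SE; edgeR, adjusted p = 0.349). Psmc5 and Psmd11 were singled out after their values were seen.

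Proportions among the subunits were examined per kilobase of exon for the 31 subunits that build the particle (14 core, 17 regulatory), leaving out Psma8 and the chaperones. Mean per-length levels over the 15 libraries spanned 5.92-fold, from Psmd11 (log2 level -1.47 relative to the mean of the 31) to Psma6 (1.10). Between libraries, a subunit's level relative to that mean had an SD of 0.09 (Psmb1) to 0.34 (Psmb4) on the log2 scale over the 15 libraries, with a median of 0.16. Exon lengths come from the union of annotated exons, so the order of genes per length depends on the transcripts each makes. In Mettl3 KO, Psmb7 lay below and Psma2 above every control library relative to that mean (differences of -0.16 and 0.27), 2 of the 31, against 3.61% of all genes that did so in either direction on the same scale. In Mettl14 KO, Psmb1 and Psmd6 lay below every control (-0.14 and -0.29), again 2 of the 31, against 2% of all genes. These 4 genes were singled out after their values were seen.

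Core and regulatory genes were also averaged within each library. The core genes had a mean of 21.2, 44.7, 39.3, 37.0 and 40.3 RPKM in control replicates 1 to 5, of 22.7, 31.4, 26.4, 23.2 and 33.5 in Mettl3 KO and of 36.5, 27.1, 36.8, 43.5 and 29.1 in Mettl14 KO. The regulatory genes had a mean of 22.2, 37.2, 34.0, 31.2 and 36.1 RPKM across control, of 19.1, 26.8, 22.2, 18.4 and 29.3 across Mettl3 KO and of 32.9, 25.5, 34.6, 34.7 and 29.1 across Mettl14 KO. Control libraries had a regulatory to core ratio of 0.896 ± 0.0868, Mettl3 KO libraries 0.842 ± 0.0299 and Mettl14 KO libraries 0.917 ± 0.0749 (SD, n = 5). The highest ratio of all, 1.045, came from control replicate 1, and the groups overlapped. RPKM is CPM divided by the gene's exon length in kilobases.

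**Figure D4:**
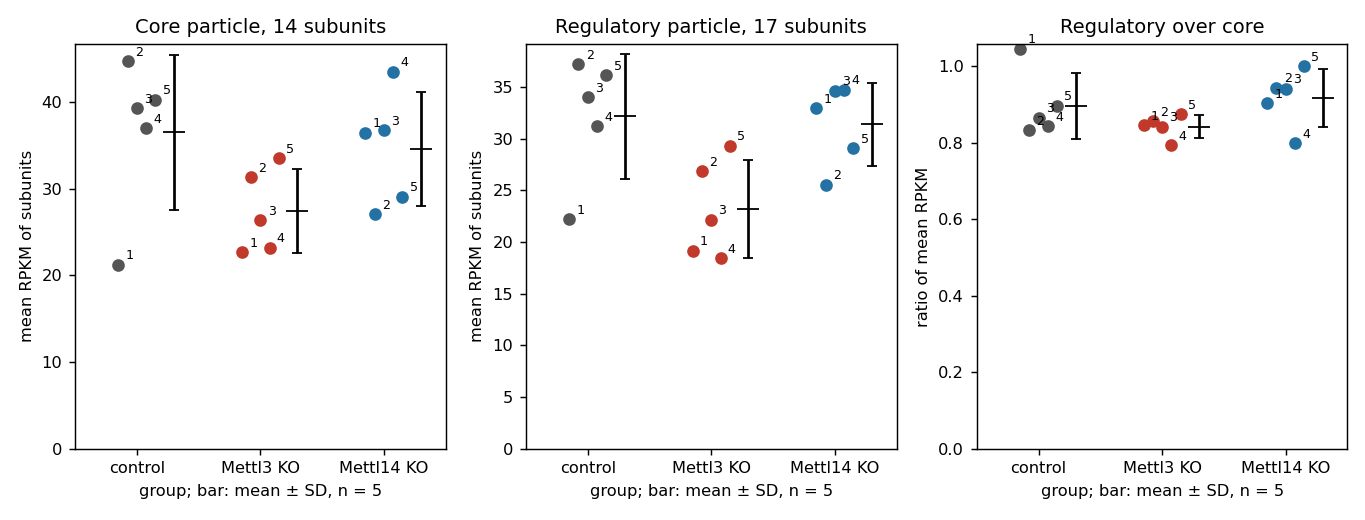
Mean RPKM of the core genes (left) and of the regulatory genes (middle) and their ratio (right) in each library, numbered by replicate, with the group mean and SD as bars (n = 5). Control replicate 1 is the lowest control in the left and middle panels and the highest point on the right, and the Mettl3 KO ratios lie between 0.793 and 0.874.

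The catalytic subunits parted from their inducible counterparts in both knockouts. Each ratio of 2 genes was taken within a library, as reads per kilobase of exon, so the scaling of libraries does not enter it. Psmb8 over Psmb5 was 0.563, 0.367, 0.623, 0.940 and 0.443 across control replicates 1 to 5, 2.37, 1.73, 1.74, 2.04 and 1.35 across Mettl3 KO and 2.18, 1.35, 1.15, 2.33 and 0.812 across Mettl14 KO. All 5 Mettl3 KO ratios and 4 of the 5 Mettl14 KO ratios lay above every control. The geometric mean was 3.25-fold higher in Mettl3 KO (log2 difference 1.70 ± 0.27 SE, two-sided exact permutation p = 0.00794, adjusted p = 0.0119) and 2.60-fold higher in Mettl14 KO (1.38 ± 0.37 SE, exact permutation p = 0.0159, adjusted p = 0.0190). The p of 0.00794 is the smallest that 5 against 5 samples can give, and adjustment was by Benjamini-Hochberg over 6 comparisons. The genes of these ratios were chosen with earlier results of these data known, which the p-values do not take into account.

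Psmb9 over Psmb6 was 0.239, 0.200, 0.347, 0.391 and 0.191 across control replicates 1 to 5, 0.828, 0.723, 0.754, 0.897 and 0.838 across Mettl3 KO and 0.936, 0.748, 0.480, 0.885 and 0.432 across Mettl14 KO. Every knockout ratio lay above every control, 3.08-fold higher in Mettl3 KO (1.62 ± 0.22 SE) and 2.53-fold higher in Mettl14 KO (1.34 ± 0.31 SE), both with exact permutation p = 0.00794 and adjusted p = 0.0119. Psmb10 over Psmb7 was 0.859, 0.727, 1.27, 1.97 and 1.08 across control replicates 1 to 5, 3.91, 3.53, 2.88, 3.34 and 2.69 across Mettl3 KO and 4.61, 3.52, 1.96, 4.40 and 1.43 across Mettl14 KO. All 5 Mettl3 KO ratios exceeded every control (2.92-fold, 1.55 ± 0.27 SE, exact permutation adjusted p = 0.0119), while 3 of 5 Mettl14 KO ratios did (2.60-fold, 1.38 ± 0.42 SE, exact permutation adjusted p = 0.0238). Mettl14 KO replicates 3 and 5 had the lowest ratios of their group for all 3 pairs. Without control replicate 1 the 6 log2 differences were 1.29 to 1.71, with adjusted p from 0.0159 to 0.0397 by the same test. Whether the ratios differ between the knockouts was not tested.

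**Figure D5:**
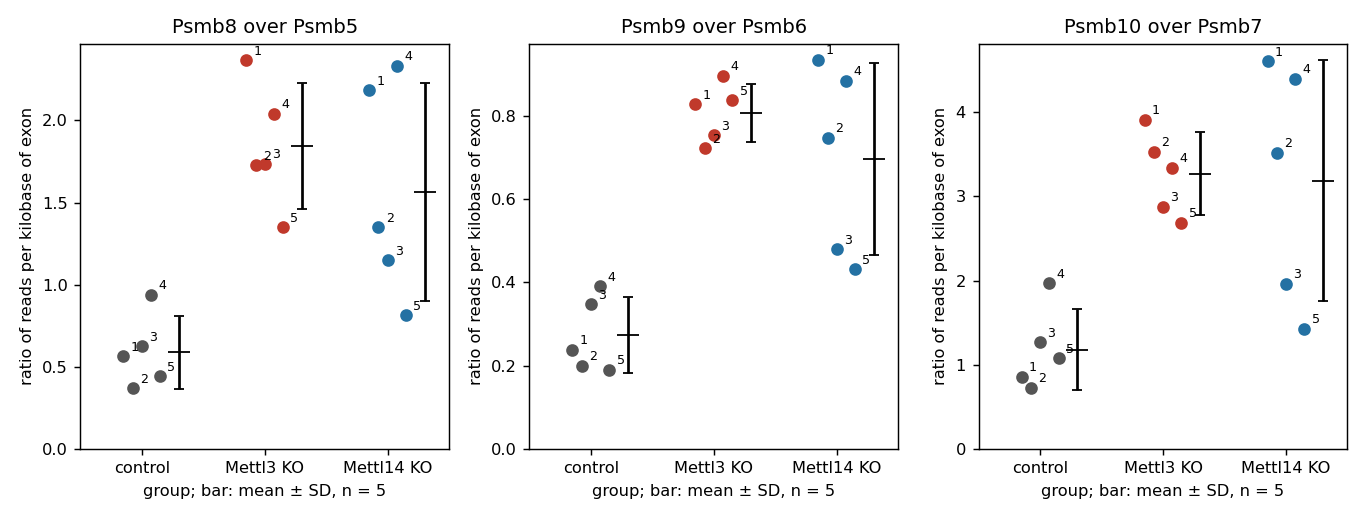
Ratio of reads per kilobase of exon of Psmb8 to Psmb5, Psmb9 to Psmb6 and Psmb10 to Psmb7 in each library, numbered by replicate, with the group mean and SD as bars (n = 5). Mettl3 KO libraries lie above all controls in each panel, and Mettl14 KO libraries spread more widely, with replicates 3 and 5 lowest.

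Under TMM scaling the inducible genes had higher fitted values in Mettl3 KO, and the constitutive genes other than Psma8 lower ones. In Mettl14 KO the constitutive genes stood near control. Relative to genes of like abundance, the constitutive genes had a median of 0.02 in Mettl3 KO and 0.05 in Mettl14 KO. By that measure Psmb8, Psmb9 and Psmb10 lay at 1.25 to 1.63 in Mettl3 KO and at 1.33 to 1.52 in Mettl14 KO. Psmb8 read 23.7, 27.7, 55.2, 66.9 and 39.6 CPM across control replicates 1 to 5, 100.2, 103, 72.0, 77.6 and 97.6 across the Mettl3 KO libraries and 172, 85.0, 75.7, 192 and 45.0 across the Mettl14 KO libraries. Psmb8 had log2 fold changes of 1.01 ± 0.26 (SE, edgeR adjusted p = 0.0526) in Mettl3 KO and 1.36 ± 0.39 (SE, adjusted p = 0.244) in Mettl14 KO. Psmb9 read 15.9, 22.6, 43.4, 48.2 and 24.9 CPM across control replicates 1 to 5, 70.3, 77.5, 58.8, 70.5 and 78.9 across the Mettl3 KO libraries and 129, 70.7, 49.0, 138 and 36.6 across the Mettl14 KO libraries. Psmb9 had 1.14 ± 0.26 (adjusted p = 0.0524) and 1.40 ± 0.39 (edgeR adjusted p = 0.234). Psmb10 read 13.9, 24.2, 37.3, 52.1 and 30.5 CPM across control replicates 1 to 5, 54.7, 70.3, 50.4, 48.2 and 58.8 across the Mettl3 KO libraries and 121, 58.2, 47.2, 122 and 28.5 across the Mettl14 KO libraries. Psmb10 had 0.77 ± 0.27 (adjusted p = 0.0813) and 1.20 ± 0.40 (edgeR adjusted p = 0.292). None of the 3 passed over all genes in the edgeR fit with TMM scaling and every library. In Mettl3 KO all 3 passed without control replicate 1 (1.07, 1.19 and 0.80, edgeR adjusted p from 0.00181 to 0.00507), as did 36.2% of all genes as higher. With every library kept, all 3 passed in Mettl3 KO under loess scaling (edgeR adjusted p from 0.00324 to 0.00958) and with the replicate block (0.0134 to 0.0386). The shares of all genes called higher in those fits are not given here. In Mettl14 KO none of the 3 passed in any of 19 alternatives. The 9 T cell markers summed to 52.7, 27.5, 42.6, 42.0 and 12.99 CPM across control replicates 1 to 5, to 191, 72.0, 86.7, 119 and 56.4 across Mettl3 KO and to 109.7, 113, 43.7, 280.4 and 34.1 across Mettl14 KO. Every Mettl3 KO sum and 3 of the 5 Mettl14 KO sums exceeded every control, and Mettl14 KO replicates 3 and 5, lowest in the ratios, were also lowest here. All 9 markers had higher fitted values in both knockouts (log2 fold changes of 1.23 to 2.15 and 1.13 to 2.23), not set here against genes of like abundance. All genes of average log2 CPM 1 to 2, 2 to 3 and 3 to 4 had medians of 0.79, 0.29 and -0.23 in Mettl3 KO. In Mettl14 KO these were -0.03, -0.05 and -0.09. With TMM scaling and every library edgeR called none of the 9 markers. Without control replicate 1 it called all 9 in Mettl3 KO (36.2% of all genes) and 2 in Mettl14 KO (2.86% of all genes). Immune cells make Psmb8 to Psmb10 at rest, and the part of these cells in the ratios was not tested.

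Other genes of the pathway were read for comparison, in groups by function, 39 in all. In the Mettl3 KO edgeR fit with TMM scaling and every library, 2 of the 39 passed as lower (0.835% of all genes) and none as higher. Of their values 32 lay below 0, as did 85.9% to 96.2% of all genes in each class of abundance above a log2 CPM of 4. Psmg1 encodes a chaperone of the alpha ring. Psmg1 read 11.3, 22.9, 17.8, 17.6 and 17.0 CPM across control replicates 1 to 5, 8.73, 10.7, 8.64, 8.38 and 12.2 across the Mettl3 KO libraries and 15.6, 11.5, 12.7, 11.1 and 14.2 across the Mettl14 KO libraries. Its Mettl3 KO log2 fold change was -0.88 ± 0.17 (SE, edgeR adjusted p = 0.0430), lost in 16 of 19 alternatives with adjusted p up to 0.237. Sem1 encodes a small lid subunit that lies outside the symbols chosen here. Sem1 read 123, 233, 169, 145 and 161 CPM across control replicates 1 to 5, 94.0, 116, 97.4, 74.5 and 123 across the Mettl3 KO libraries and 126, 104, 142, 135 and 135 across the Mettl14 KO libraries. It had -0.78 ± 0.17 (SE, edgeR adjusted p = 0.0498), also lost in 16 of 19 alternatives, with adjusted p up to 0.317. Of the 5 core assembly factors, all 5 values lay below 0, with Pomp, which escorts the beta ring, at -0.31 ± 0.15 (SE; edgeR, adjusted p = 0.178).

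The interferon-inducible activator genes Psme1 and Psme2 were higher by value, at 0.52 ± 0.17 (SE, edgeR adjusted p = 0.0696) and 0.18 ± 0.19 (adjusted p = 0.455) in Mettl3 KO and at 0.56 ± 0.18 and 0.54 ± 0.29 in Mettl14 KO (edgeR adjusted p = 0.28 and 0.515). Over 19 alternatives the Psme2 value in Mettl3 KO ran from -0.04 to 0.70. It was below 0 with DESeq2 and without the low-count filter, and it passed under loess scaling (edgeR adjusted p = 0.0263). Psme1 ran from 0.30 to 1.06 and passed under loess, with the replicate block and without control replicate 1 (edgeR adjusted p = 0.00663, 0.0497 and 0.00657). Relative to genes of like abundance Psme1 and Psme2 lay at 1.035 and 0.69 in Mettl3 KO and at 0.70 and 0.67 in Mettl14 KO. None of the 4 transcriptional control genes (Nfe2l1, Nfe2l2, Ddi2 and Ngly1) passed in either knockout. Nfe2l1 read 129, 146, 182, 216 and 276 CPM across control replicates 1 to 5, 110.5, 182, 131, 109 and 149 across the Mettl3 KO libraries and 285, 178, 179, 224 and 173 across the Mettl14 KO libraries. Nfe2l1 had -0.56 ± 0.22 (SE, edgeR adjusted p = 0.113) in Mettl3 KO, against 0.56 in the authors' deposited table. The 8 ubiquitin shuttle and p97 genes had a median of -0.52 in Mettl3 KO and -0.04 in Mettl14 KO, with none called.

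The authors' deposited table of the Mettl3 comparison gives the 35 genes a median log2 fold change of -0.37, and 4 of the 34 with an adjusted p pass as lower (8.18% of all genes with one in that table): Psmc1, Psmc2, Psmd6 and Psmd11. In that table Psmd6 has -0.66 and Psmc1 -0.42. For the 35 members its values lie 0.26 to 0.54 above those of DESeq2 on the deposited counts, with a median of 0.33. The authors' deposited table for Mettl14 gives a median of -0.06, and none of the 34 members with an adjusted p passes. In the authors' Mettl3 comparison Psmb8, Psmb9 and Psmb10 have 1.22, 1.07 and 0.91 (the authors' adjusted p = 0.000225, 0.0247 and 0.0269). There 1871 of 16160 genes pass in either direction. In their Mettl14 comparison Psmb8 (1.39) and Psmb9 (1.32) pass (the authors' adjusted p = 0.0108 and 0.0431), as do 503 of 16861 genes in either direction. Psmb10 (1.24) does not pass there (0.0706).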

How the data were processed

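RNA was sequenced from 15 CT26 tumor samples, 5 for each of Mettl3 KO, Mettl14 KO and control, grouped by sample title. The deposited tables hold whole read counts per gene, and the submitters' processing notes name cutadapt 1.18, HISAT2 2.1.0, HTSeq 0.11.2, DESeq2 and the mm10 build. The sources used here give neither the strand setting nor the annotation release, so reads of a gene and an antisense or overlapping gene, or of a near-identical pseudogene, may be mixed. The authors' deposited comparison tables give a mean normalized signal per gene, log2 fold changes and p-values with adjusted p-values, per the file headers. The control columns of both count tables were identical and used once. The counting summary lines that name no gene (56.8% to 86.2% of all reads) entered neither library sizes nor tests.

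Each knockout was compared with control on the counts with edgeR 4.0.16 (R 4.3.3, limma 3.58.1) by quasi-likelihood test, after filterByExpr at a minimum count of 10 and TMM scaling. The knockouts were compared with each other in a fit of all 15 libraries. P-values were Benjamini-Hochberg adjusted over all genes tested, with a threshold of 0.05, and all 35 members passed the low-count filter in all 3 comparisons. DESeq2 1.42.0 was an alternative, beside other scalings, filters, a covariate, a replicate block and each library left out. The edgeR fit was also run on simulated counts. These held no shift with abundance and no library unlike the rest of its group, so that run does not bear on either feature. Ratios of inducible to constitutive subunits were tested by two-sided exact permutation of samples on the log2 scale. Symbols came from the supplied table of gene names, positions and exon lengths from GENCODE M21 (mm10), and promoters from RefSeq (GRCm38.p6). Genes were named by rule: the catalytic subunits, Psma8, the highest and lowest member of each role group in Mettl3 KO, the related genes Psmb8, Psmb9, Psmb10, Psme1, Psme2, Pomp and Nfe2l1, and any related gene past the threshold. Other genes given a value, among them Psmd14, Psmd7, Psmd10, Psmd2, Psmb1 and Psmb3, lie outside this rule. The members and lists were chosen with earlier results of these data known. No 2 replicates agreed within sampling noise: over 30 pairs the smallest chi-square per gene was 9.14.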

Additional observations from a re-analysis of the deposited data

Results flagged for a closer look

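In 147 sets of 5 libraries (each of the 35 members, 9 related genes, the summed level and 4 ratios, in 3 groups), 5 had a library whose gap to its nearest neighbour exceeded 0.71 of the group's range, where chance gives about 1 in 20, or 7. Of these, 3 concerned control replicate 1, the library with the largest share of reads outside genes. Its Psma5 level, 42.18 CPM, was the lowest of the controls. Its Psmb6 level, 34.06 CPM, was also the lowest of its group. Its Psma8 level, 2.758 CPM, was the highest of the controls. In Mettl3 KO replicate 5, Psma4 stood at 89.18 CPM, above the other 4 libraries. In Mettl14 KO replicate 4, Psmd8 stood at 132.9 CPM, above the rest of its group.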

How the results depend on the processing

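The 0 members called lower in Mettl3 KO became 20 with the replicate number as a block (19.2% of all genes), 13 with DESeq2, and 0 to 17 when each library was left out, the highest without control replicate 1; the count called higher was then 0 to 1. In Mettl14 KO leaving out a library gave 0 to 1 lower (1 without control replicate 1, where 2% of all genes were lower). The members' median log2 fold change in Mettl3 KO moved to -0.0235 with abundance-dependent loess scaling and -0.18 with the share of reads outside genes as covariate, and ranged from -0.71 to -0.02 over all alternatives, beside -0.16 to 0.11 in Mettl14 KO. Between the knockouts it moved to -0.0552 with loess and -0.0838 with the covariate. Under loess 7 of the 16 named members changed sign in Mettl3 KO: Psmb6 0.0794, Psmc3 0.0297, Psmd4 0.0626, Psma2 0.26, Psmb2 0.21, Psmd3 0.16 and Psmd9 0.15, as did Pomp (0.20), and 19 of all 35 members lay below 0. Loess also left 21 of 35 below 0 between the knockouts (34 under TMM). The cause was not tested. Relative to genes of like abundance the median stayed between -0.04 and 0.03 in Mettl3 KO and between -0.02 and 0.07 in Mettl14 KO. The ratios kept their call whichever library was left out. With the replicate block, a sign-flip test of same-numbered differences, the 6 log2 differences were 1.70 and 1.38 (Psmb8 over Psmb5, Mettl3 KO and Mettl14 KO), 1.62 and 1.34 (Psmb9 over Psmb6), and 1.55 and 1.38 (Psmb10 over Psmb7), each with an exact p of 0.0625, the smallest that 5 pairs allow. The numbers did not pair the samples: 15 same-number correlations ran from -0.752 to 0.619, and 0 samples correlated best with their own number. Depth limits Psma8 most, with 3 to 17 reads a library.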

Other observations

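The 8 genes of proteasome-associated proteins all had fitted values below 0 in Mettl3 KO, with log2 fold changes from -0.78 (Sem1) to -0.20 (Adrm1). Of the 8, 7 had an unadjusted p under 0.05 by edgeR (32.3% of all genes). Relative to genes of like abundance their median was -0.15. In Mettl14 KO 7 of the 8 values lay below 0, with a median of -0.26. The other activator genes, Psme3 and Psme4, had Mettl3 KO values of -0.64 and -0.72 (edgeR adjusted p = 0.0689 and 0.0539). They lay on the opposite side of 0 from Psme1 and, in the filtered edgeR fit, from Psme2. Among the core assembly factors, Psmg3 had -0.95 (edgeR adjusted p = 0.0692) and lay -1.05 from genes of like abundance, the farthest of its list. These genes were singled out after their values were seen.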
